A study of Mus musculus with 10 samples.

Results

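The imprinted growth genes *Mest*, *Peg3*, *Igf2*, *H19*, *Dlk1*, *Cdkn1c*, *Grb10*, *Plagl1*, *Meg3* and *Ndn* were followed in epididymal white adipose tissue (WAT) of 10 mice. Their probes were chosen by gene name alone, and 25 of the 55681 non-control probes of the array carried 1 of the 10 names. Of these, 18 were expressed, meaning that Cy5 exceeded background clearly on 5 or more of the 10 arrays, among 27811 expressed probes in all. At least 1 expressed probe was found for 9 of the 10 genes, and *Igf2* had none. For each gene, the expressed probe with the highest mean signal is called its leading probe.

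All 10 mice formed 1 group. They were male wildtype mice, 9 weeks old at the start (strain given as C57BL/6J in the sample labels and as C57BL/6JOlaHsd in the treatment protocol) that ate a purified low fat diet for 3 weeks and then a high-fat diet for 12 weeks at 29°C. They then received the iron chelator desferrioxamine (DFO), which stabilises hypoxia-inducible transcription factors, by daily injection for 5 days at 100 mg/kg body weight, and were killed on day 6 after 2 h without food. RNA of each mouse was labelled with Cy5 and hybridised on its own 2-colour array against 1 Cy3-labelled pool of all samples of the larger study, which included control mice and also RNA of these same 10 mice. No array of a control mouse was analysed here, so nothing below is an effect of DFO, and every log2 ratio is the level of a mouse relative to that pool. Dyes were not swapped, so no ratio was tested against 0.

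Genomic imprinting leaves 1 parental copy of a gene silent, through DNA methylation laid down in the germline at imprinting control regions. Imprinted genes cluster in domains, and many that are active on the paternal copy promote growth, whereas many that are active on the maternal copy restrain it. *Mest* (mesoderm-specific transcript) codes for a protein of the alpha/beta hydrolase family and is known in mice as a marker of fat mass expansion. *Plagl1*, *Peg3* and *Ndn* code for a zinc finger transcription factor, a zinc finger protein and a MAGE family protein. *Dlk1* codes for a transmembrane protein that restrains adipocyte differentiation, *Igf2* for a growth factor, *Cdkn1c* for a cyclin-dependent kinase inhibitor and *Grb10* for an adaptor of the insulin and IGF1 receptors. *H19* and *Meg3* are long noncoding RNAs of the *Igf2* and *Dlk1* domains.

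The probes on which the results turn are given here as the scanner files list them, with positions on mm9. The following coding and noncoding RNA probes are shown because other probes of the same gene gave another result or because they are the gene's leading probe. Exon annotation on mm9 was not used here, so a probe is described by its position and by its reading frames. The third *Mest* probe (chr6:30692160-30692219, plus strand) had the sequence
A_55_P2151868: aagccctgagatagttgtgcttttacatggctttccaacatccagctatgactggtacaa
The dim *Plagl1* probe (chr10:12848421-12848480, plus strand) is free of stop codons in all 3 forward frames, whereas both bright *Plagl1* probes hold a stop codon in each frame:
A_55_P1961965: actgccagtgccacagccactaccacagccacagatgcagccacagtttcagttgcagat
The 2 bright *Plagl1* probes (chr10:12850832-12850891 and chr10:12851280-12851339, plus strand) start 448 bases apart and hold the same run of 26 bases, so they are not independent in sequence:
shared run of A_55_P1961968 and A_52_P532456: atctcctaacctttgatgactctgta
The dim *Peg3* probe (chr7:6661407-6661466, minus strand) is also open in all 3 frames:
A_55_P2163319: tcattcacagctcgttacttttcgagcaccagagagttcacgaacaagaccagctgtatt
The *Ndn* probe (chr7:69493847-69493906, plus strand) and the leading *H19* probe (chr7:149761492-149761551, minus strand) were
A_52_P451644: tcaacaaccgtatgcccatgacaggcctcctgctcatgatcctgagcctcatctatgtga
A_55_P1961127: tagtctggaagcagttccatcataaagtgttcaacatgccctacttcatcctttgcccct
The leading and the third of the *Meg3* probes lie on the plus strand at chr12:110809678-110809737 and chr12:110799558-110799617:
A_51_P455997: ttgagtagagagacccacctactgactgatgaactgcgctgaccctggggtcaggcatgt
A_52_P196568: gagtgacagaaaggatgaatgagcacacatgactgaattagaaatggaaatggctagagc

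Promoter sequence (the 250 bases before a RefSeq start site, GRCm38.p6) was found for 8 of the 10 genes. It was read for ACGTG and GCGTG, the core letters of the hypoxia response element, and for GGGGCCCC, described as a site of the PLAGL1 protein, on both strands. ACGTG was present in 16.6% of 32851 promoters of that length, GCGTG in 28.2% and GGGGCCCC in 0.889%. The *Plagl1* promoter (chr10:13090582-13090831, plus strand) held 2 matches to ACGTG, which are the opposite strands of a single palindrome CACGTG, and 2 matches to GCGTG, all in capitals:
Plagl1: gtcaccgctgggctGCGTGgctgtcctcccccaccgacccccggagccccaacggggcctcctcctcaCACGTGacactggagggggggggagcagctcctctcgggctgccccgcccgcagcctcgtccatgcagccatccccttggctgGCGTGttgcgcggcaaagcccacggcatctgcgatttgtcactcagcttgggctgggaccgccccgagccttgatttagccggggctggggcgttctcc
The *Peg3* promoter (chr7:6730420-6730669, minus strand) held 1 GGGGCCCC and 1 GCGTG:
Peg3: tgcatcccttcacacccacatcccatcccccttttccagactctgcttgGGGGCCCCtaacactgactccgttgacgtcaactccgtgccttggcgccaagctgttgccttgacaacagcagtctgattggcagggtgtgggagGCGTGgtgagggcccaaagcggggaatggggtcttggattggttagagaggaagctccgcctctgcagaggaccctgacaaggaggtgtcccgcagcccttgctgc
None of the 3 *Mest* start sites had a match to any of these letters in its window, of which that at chr6:30737800-30738049 (plus strand) is shown for comparison:
Mest: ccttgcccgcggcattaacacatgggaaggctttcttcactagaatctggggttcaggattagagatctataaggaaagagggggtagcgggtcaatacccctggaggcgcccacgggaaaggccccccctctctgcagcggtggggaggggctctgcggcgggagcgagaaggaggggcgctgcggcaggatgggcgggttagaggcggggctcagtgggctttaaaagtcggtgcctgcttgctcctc
Of the other genes, *Dlk1* held 1 ACGTG and 1 GCGTG, *Ndn* 1 GCGTG, *Grb10* 2 GCGTG at 1 of its 2 start sites, *Igf2* 1 ACGTG at 1 of its 4, and *Meg3* none. These matches describe the letters only, and binding was not measured.

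The median Cy5 signal of an array was 54.8 to 81.3 intensity units against a background of 32 to 37, and no spot was saturated. Mice 4, 5, 6 and 7 lay apart from the other 6 mice on the first principal component, which held 75.1% of the variance of 27718 expressed probes, with a gap of 0.513 of its range. In mice 4 to 7 the mean log2 ratio of 8 adipocyte markers (*Adipoq*, *Plin1*, *Cfd* and others) was -2.59 to -1.57, against -0.27 to 0.77 in the other 6, and all 8 genes were lowest in these 4 mice. The mean of 7 macrophage markers (*Cd68*, *Trem2*, *Gpnmb* and others) was 0.89 to 1.24 against -1.60 to -0.17, and all 7 were highest there. Means of mesothelium, endothelium and blood markers were lower in the same mice (mesothelium -1.43 to -1.01 against -0.49 to 0.36), whereas means of stromal progenitor markers overlapped (-0.21 to 0.07 against -0.26 to 0.11). Single stromal genes shifted both ways, *Cd34* and *Dpp4* lowest (*Dpp4* -0.99 to -0.57) and *Col1a1* and *Col3a1* highest in mice 4 to 7 (*Col1a1* 0.47 to 0.66). In bulk tissue, fewer cells of a type and less RNA per cell cannot be told apart. These marker levels moved with the results below, and their part in them was not tested. The labels do not set mice 4 to 7 apart, so the 2 sets were not tested against each other and only their ranges are given. The array slides paired mice 1 and 2, 3 and 4, 5 and 6, 7 and 8, and 9 and 10.

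**Figure D1:**
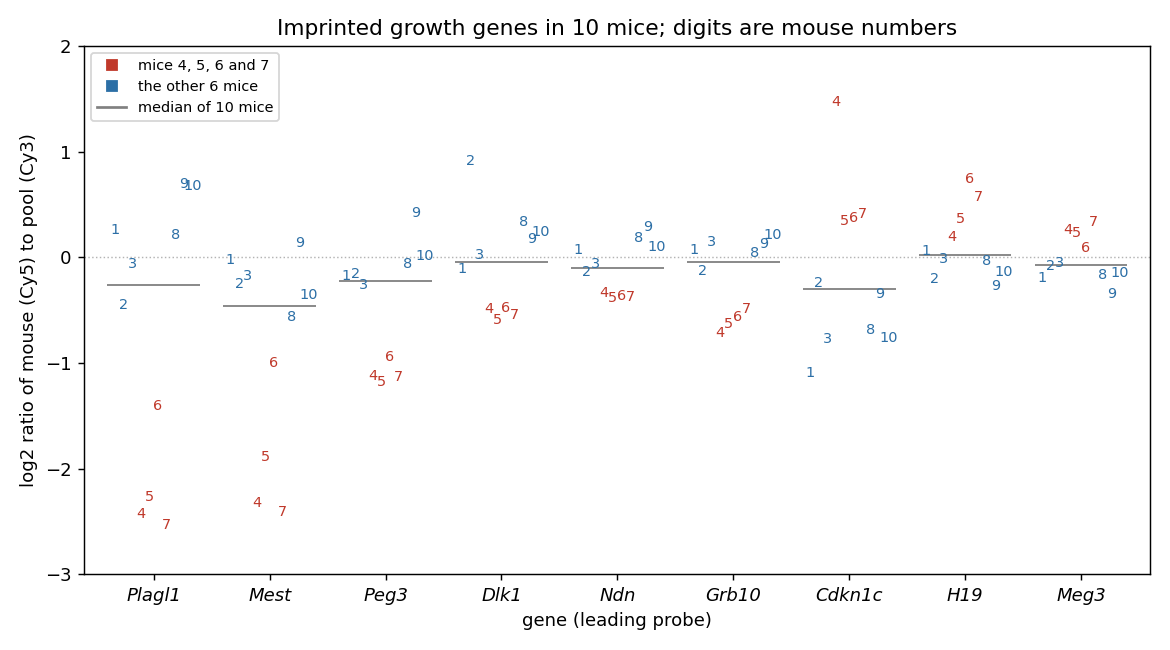
Log2 ratio of each mouse to the pool (y axis) for the leading probe of the 9 expressed imprinted growth genes (x axis); each digit is 1 mouse, red for mice 4 to 7 and blue for the other 6, and grey lines are medians of 10 mice. The red digits lie below all blue ones for *Plagl1*, *Mest*, *Peg3*, *Dlk1*, *Ndn* and *Grb10* and above all blue ones for *Cdkn1c*, *H19* and *Meg3*.

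*Mest* was among the most variable genes of the tissue. The Cy5 signal of its leading probe (chr6:30698279-30698338, plus strand) was 3101 intensity units in mouse 4, 12174 at the median and 21498 in mouse 9. The log2 ratio was -0.03, -0.25, -0.18, -2.33, -1.89, -0.997, -2.41, -0.57, 0.13 and -0.36 in mice 1 to 10. Mice 4, 5, 6 and 7 had the 4 lowest values and did not overlap with the others, although mouse 6 lay closer to mouse 8 than to mouse 5. The highest mouse exceeded the lowest 5.82-fold, and the SD over 10 mice was 0.97, above 98.6% of expressed probes. This probe is printed in 10 spots on every array, and the SD over spots within an array was 0.03 to 0.19, so the spread between mice was larger than that of the measurement in each array. One spot of mouse 1 was an outlier and was left out.

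The other *Mest* probes, at chr6:30697385-30697444 and chr6:30692160-30692219, also had mice 4 to 7 lowest. The second probe ranged from -2.30 in mouse 7 to 0.27 in mouse 9 (SD 0.96, 5.90-fold). The third probe, whose sequence is given above, ranged from -1.77 in mouse 7 to 0.11 in mouse 1 (SD 0.74, 3.67-fold). Its range was narrower, at signals of 216 to 1227 units. In all 3 probes mouse 7 was lowest.

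**Figure D2:**
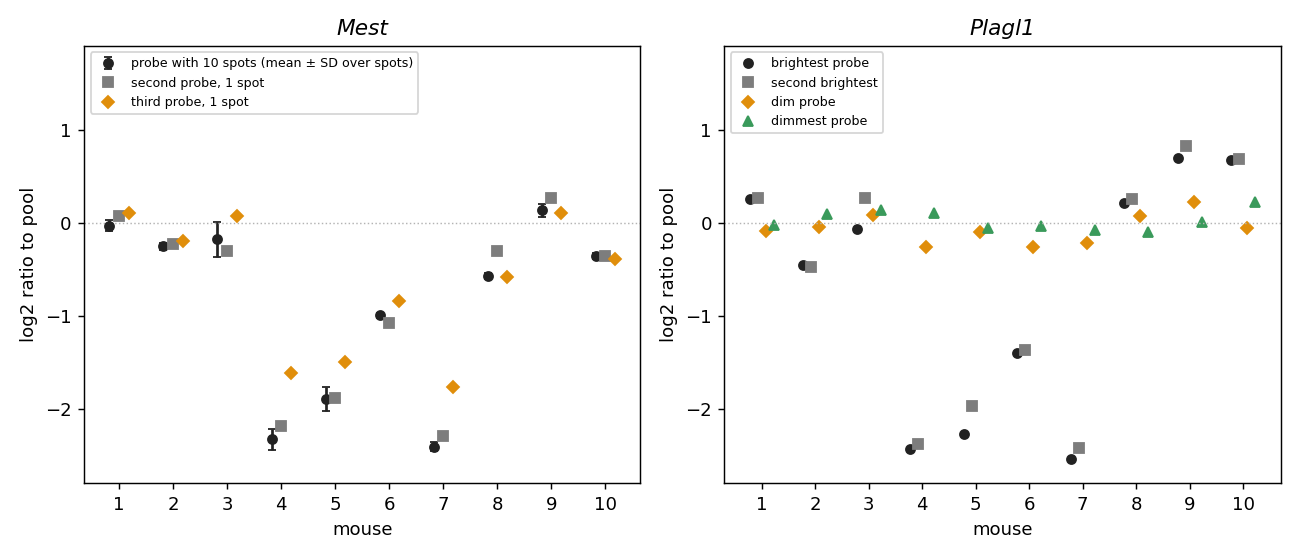
Log2 ratio to the pool (y axis) for each mouse (x axis) by all 3 *Mest* probes (left) and all 4 *Plagl1* probes (right); bars on the first *Mest* probe are the SD over its spots within the array. The *Mest* probes moved together, with mouse 7 lowest in all 3, whereas the bright *Plagl1* probes spanned -2.54 to 0.83 and the dim ones only -0.26 to 0.22.

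*Plagl1* had the widest spread of the 9 genes. Signals of its leading probe were 750 in mouse 4, 2730 at the median and 9118 in mouse 9, and the log2 ratio was -2.43, -2.27, -1.41 and -2.54 in mice 4, 5, 6 and 7 and -0.45 to 0.69 in the other 6. The SD was 1.31 and the highest mouse exceeded the lowest 9.36-fold. The second bright probe gave -2.43 to 0.83 (SD 1.29, 9.53-fold). It shares the 26-base run shown above and most of the bases that follow it, so it is not an independent reading of this spread. The remaining 2 probes, which start at least 1981 bases upstream, did not vary on this scale. The dim probe A_55_P1961965 ranged from -0.26 in mouse 6 to 0.22 in mouse 9 (SD 0.16) and also had mice 4 to 7 lowest, by a narrow margin below mouse 1 (-0.10 against -0.09). The dimmest, A_55_P2153251, ranged from -0.10 in mouse 8 to 0.22 in mouse 10 (SD 0.10), and the 2 sets of mice overlapped. Both dim probes were well above background on all 10 arrays, at signals of 102 to 248 and 84.6 to 137 units. Probes of *Plagl1* thus disagreed in the size of the spread, and the mean over all 4 had an SD of 0.69.

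*Peg3* was also lowest in mice 4 to 7, over a smaller range. The leading probe (chr7:6658774-6658833, minus strand) had signals of 151 in mouse 4, 321 at the median and 903 in mouse 9. Its log2 ratio was -1.12, -1.18, -0.95 and -1.13 in mice 4 to 7 and -0.26 to 0.42 in the other 6 (SD 0.58, 3.04-fold). Mice 4 to 7 lay close to each other in comparison with their range for *Mest*. The dim *Peg3* probe ranged from -0.63 in mouse 7 to 0.13 in mouse 9 (SD 0.28) and was not well above background in mice 4 to 7, so its values there are bounds only.

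*Dlk1* behaved differently in mouse 2. Signals of its leading probe (chr12:110698721-110698781, plus strand) were 56.4 in mouse 5, 87.7 at the median and 250 in mouse 2. The log2 ratio was -0.48 to -0.59 in mice 4 to 7, -0.11 to 0.33 in mice 1, 3, 8, 9 and 10, and 0.91 in mouse 2 (SD 0.49, 2.84-fold). The probe was well above background on 8 arrays, not in mice 4 and 5, where the level is a bound. Mouse 2 stood alone at the top, and was also highest of 10 mice for *Ddc*, a neighbour of *Grb10*, and for the sperm genes *Prm1*, *Prm2* and *Tnp1*. Of 8 epididymis and sperm markers 4 were expressed, and their mean was -0.79 for mouse 2 but between -2.08 and -1.47 for the 9 others, whereas *Lcn8*, *Lcn9*, *Defb42* and *Crisp1* were not expressed and *Lcn12* was at -0.09 in mouse 2. The mesothelium markers did not share a direction there (*Krt8* 1.91 and *Krt19* 0.65, *Msln* -0.96 and *Upk3b* -0.98, list mean -0.22). The part of these tissues in its *Dlk1* level was not tested. The other *Dlk1* probe was well above background in mouse 2 only.

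*Ndn* varied least among the genes that were lowest in mice 4 to 7. Signals were 160 in mouse 3, 269 at the median and 457 in mouse 8. The log2 ratio was -0.33 to -0.39 in mice 4 to 7 and -0.14 to 0.29 in the other 6 (SD 0.26, 1.60-fold). Mice 4 to 7 were again almost level with each other.

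*Igf2* and *H19* were near the limit of the array. The only *Igf2* probe (chr7:149839661-149839720, minus strand) was well above background in mice 2 and 9 alone and in the pool on no array, at signals of 45.2 to 75.3 units, so no order among mice was drawn from it. *H19* had 7 probes, of which 2 were expressed and 4 were not well above background on any array. Its leading probe had signals of 57.3 in mouse 3, 79.1 at the median and 153 in mouse 7. The log2 ratio was 0.19, 0.36, 0.74 and 0.57 in mice 4, 5, 6 and 7 and -0.27 to 0.06 in the other 6 (SD 0.34, 2.02-fold). By this probe mice 4 to 7 were thus highest for *H19*, with mouse 4 only just above mouse 1. The second expressed probe (SD 0.29) exceeded background clearly in Cy5 on 6 arrays, among them those of mice 4 to 7, and in the pool on 0. Its Cy5 signal in mouse 8 (98.6) exceeded that in mice 4, 5 and 6 (66.4, 85.2 and 96.9), so no order among mice was drawn from it.

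*Cdkn1c*, which halts the cell cycle, was highest in the mice where *Mest* was lowest. Its probe (chr7:150644753-150644812, minus strand) had signals of 739 in mouse 3, 2567 at the median and 7399 in mouse 4. The log2 ratio was 1.47, 0.35, 0.37 and 0.41 in mice 4, 5, 6 and 7 and -1.10 to -0.24 in the other 6 (SD 0.78, 5.94-fold). Mouse 4 stood above the other 3 of the high mice for this gene, and mouse 1 was lowest. The same 4 mice were lowest for *Grb10*, whose probe (chr11:11833165-11833224, minus strand) had signals of 83.5 to 285 and log2 ratios of -0.72 to -0.49 in mice 4 to 7 and -0.13 to 0.21 in the other 6 (SD 0.37, 1.91-fold).

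*Meg3*, which shares a domain with *Dlk1*, was highest in the mice where *Dlk1* was lowest, over a narrow range, although within the other 6 mice r of the pair was 0.289 (exact permutation p = 0.524, rho 0.26 with exact p = 0.658). Signals of its leading probe were 951 in mouse 3, 2143 at the median and 3845 in mouse 7, and the log2 ratio was 0.09 to 0.33 in mice 4 to 7 and -0.34 to -0.06 in the other 6 (SD 0.22, 1.60-fold). The second probe also had them highest, with a wider range, 0.21 to 0.52 against -0.44 to -0.09 (SD 0.39, 1.94-fold). In the third probe, near background at 48.8 to 89.1 units, the 2 sets overlapped (SD 0.14).

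Mice 4 to 7 were thus the 4 lowest for 6 genes and the 4 highest for 3, so that all 9 expressed genes fell on 1 side or the other. Of 27718 expressed probes, 21.3% had these mice lowest, 17.9% highest and 39.2% either. Of the 5 expressed genes known to be active on the paternal copy (*Mest*, *Plagl1*, *Peg3*, *Dlk1* and *Ndn*), 5 were lowest in these mice, and of the 4 known as maternal in most tissues, *H19*, *Cdkn1c* and *Meg3* were highest and *Grb10* lowest. The arrays do not tell alleles apart, this split was drawn up after the values were seen, and it has no test. It was not drawn up for the 45 other expressed imprinted genes described below, of which these mice were lowest for 18 and highest for 6. *Klf14*, known to be expressed from the maternal copy, was among those 18, so the split cannot be read as a trait of imprinted genes. The order held for all 9 genes with the log ratio of the scanner software and without background subtraction. With median centring it held for 7. It failed for *Mest*, where mouse 3 moved below mouse 6 (-0.41 against -0.08), and for *Ndn*, where mouse 3 was lowest of all 10 mice (-0.21). The array of mouse 3 was the dimmest in Cy5, and its part in this was not tested. In the deposited normalized values the order held for 7, failing for *H19* and *Ndn*. Under median centring 6.75% of all probes had mice 4 to 7 lowest and 16.5% highest, and in the deposited values 14.6% and 22.8%.

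There were 2 slides that carried 1 mouse of each set. On the slide of mice 3 and 4, mouse 4 minus mouse 3 was -2.15 for *Mest*, -2.36 for *Plagl1*, -0.86 for *Peg3*, -0.51 for *Dlk1*, -0.86 for *Grb10*, -0.27 for *Ndn*, 2.25 for *Cdkn1c*, 0.20 for *H19* and 0.31 for *Meg3*. On the slide of mice 7 and 8, mouse 7 minus mouse 8 was -1.84 for *Mest*, -2.74 for *Plagl1*, -1.07 for *Peg3*, -0.88 for *Dlk1*, -0.53 for *Grb10*, -0.56 for *Ndn*, 1.10 for *Cdkn1c*, 0.61 for *H19* and 0.50 for *Meg3*. The signs of these differences follow from the order of the 2 sets and are no further evidence of it. The leading *H19* probe was not well above background in mouse 3 nor the leading *Dlk1* probe in mouse 4, so those differences on their slide are bounds. Slide was past the threshold for 0 of 27718 probes (limma moderated F test, 0% called after Benjamini-Hochberg adjustment, 1136 at an unadjusted p under 0.05), and the adjusted p for probes of these genes was 0.697 to 0.864. With 2 mice on a slide, and the difference between the 2 sets counted as residual on these 2 slides, this test could miss an effect of slide.

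The variance of log2 Cy5 (10 mice) was set against that of log2 Cy3 (the same pool RNA on every array) by the two-sided Pitman-Morgan test. Adjustment was by Benjamini-Hochberg over all 25049 probes above background in both dyes. Mice were always in Cy5 and the pool always in Cy3. A larger Cy5 spread can therefore hold dye noise and the separate handling of each mouse's RNA, which this test cannot tell apart from differences between mice. The mice varied more for the leading probes of all 9 expressed genes. Of all probes tested, 59.8% were called in this direction and 41 in the other, and the median SD over all probes was 0.20 for Cy5 and 0.08 for Cy3. For *Mest* the SD was 0.93 in Cy5 and 0.05 in Cy3 (Pitman-Morgan adjusted over all probes, p = 1.33e-08, 10 arrays), and for *Plagl1* 1.27 and 0.09 (p = 7.55e-07). The leading *Mest* probe is averaged over 10 spots and the *Plagl1* probe has 1. The second *Mest* probe, with 1 spot, had SDs of 0.91 and 0.08 (p = 1.16e-06 in the same test). For *Cdkn1c* the p was 7.40e-07, for *Peg3* 2.38e-06, for *Dlk1* 1.08e-05, for *Meg3* 2.83e-05, for *Ndn* 0.000823, for *Grb10* 0.00167 and for *H19* 0.00340, in the same test. The dim *Plagl1* probes had adjusted p of 0.0150 and 0.355, and the third *Meg3* probe 0.432. Without the between-array step (Aquantile) 18.7% of probes were called, and 6 of the 9 genes.

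Among the 6 mice other than 4 to 7, 14.2% of probes still had the larger spread in Cy5. *Mest* (adjusted p = 0.0207 by Pitman-Morgan across all probes), *Peg3* (0.00857), *Plagl1* (0.0160), *Dlk1* (0.0274), *Cdkn1c* (0.0359) and *Grb10* (0.0390) were among them, each with an SD of the log2 ratio of 0.12 to 0.44. *H19* (0.810), *Meg3* (0.118) and *Ndn* (0.161) were not past the threshold. These values are for leading probes. The other *Mest* probes (0.0796 and 0.0693) and the dim *Peg3* probe (0.169) were not past it in the same test. Of the other *Plagl1* probes the second bright one was (0.0195), and the dim ones were not (0.305 and 0.560).

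**Figure D3:**
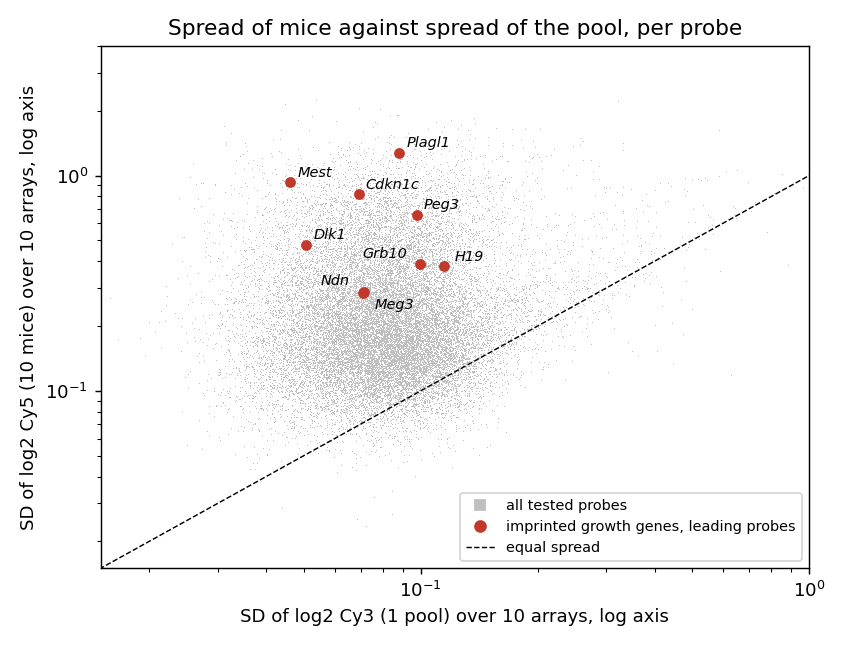
SD of log2 Cy5 over the 10 mice (y axis, log scale) against SD of log2 Cy3 of the same pool over the 10 arrays (x axis, log scale) for each tested probe (grey) and the leading probes of the imprinted growth genes (red); the dashed line marks equal spread. All 9 red points lie above the line, *Plagl1* highest at 1.27 and *Mest*, averaged over 10 spots, farthest to the left at 0.05.

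How far other genes moved with each of these was read by limma regression on the leading probe, adjusted over all expressed probes of other genes. Over 10 mice the share of probes called was 45.3% for *Mest*, 49.7% for *Peg3*, 37.1% for *H19*, 25.9% for *Dlk1*, 37.9% for *Cdkn1c*, 49% for *Grb10*, 50.6% for *Plagl1*, 47.6% for *Meg3* and 45.7% for *Ndn*. With slide as a block the count fell from 10275 to 0 for *H19* and from 7181 to 1 for *Dlk1* (limma). Of the probes called, 55% rose with *Mest*, 53.9% with *Peg3*, 45.8% with *H19*, 60.6% with *Dlk1*, 45.7% with *Cdkn1c*, 52.9% with *Grb10*, 53.6% with *Plagl1*, 45.9% with *Meg3* and 53.1% with *Ndn*. This split depended on the scaling. In the same order of genes it was 75.1, 81.7, 60.3, 94.6, 91.4, 73, 67.6, 97.4 and 98.4% with median centring and 43.3, 44.8, 62.1, 34.1, 56.3, 48, 44.9, 57.8 and 51.9% in the deposited values, and for *Dlk1* 46.7% with the scanner log ratio. Within the 6 other mice, where both the gap to mice 4 to 7 and 4 of the mice are gone, 669 of 27714 probes (2.41%) were called for *Plagl1*, 168 rising (0.606%) and 501 falling (1.81%) with it. For the other 8 genes limma called 0. Unadjusted p was under 0.05 for 358 of 27715 probes (*Mest*) to 4209 of 27717 (*Ndn*), where a share of 0.05 is expected with no association. The counts for *Mest*, *H19* (858) and *Cdkn1c* (1094) lay below that share. The *Dlk1* count depended on single mice, from 939 probes without mouse 5 and 1044 without mouse 7 to 13242 without mouse 2, against 7181 with all. It was 1550 without mouse 4, 2066 without mouse 6, 2578 without mouse 8 and 3570 without mouse 10. The *H19* count fell from 10275 to 4969 without mouse 7.

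Of the 36 pairs of expressed imprinted growth genes, 32 were past the limma threshold over 10 mice, in fits that called 25.9% to 50.6% of all probes. *Dlk1* with *Meg3* (adjusted p = 0.0502 by limma), with *Ndn* and with *Cdkn1c*, and *H19* with *Cdkn1c*, were not. Each pair was read only with the gene named earlier in the opening list as predictor, here and within the 6 mice. The adjusted p depends on which gene is the predictor, so a pair near the threshold may be called differently in reverse. Within the 6 mice Pearson's r ran from -0.893 (*Peg3* with *Meg3*) to 0.855 (*Plagl1* with *Ndn*) and 0 of 36 pairs passed the limma test adjusted over all probes (lowest adjusted p = 0.190). By exact permutation of 6 mice, unadjusted and two-sided, r had p under 0.05 in 6 pairs and Spearman's rho in 1. These were *Peg3* with *Meg3* (exact p = 0.0375, rho -0.60 with exact p = 0.242, r without the 2 farthest mice -0.006) and *Peg3* with *Ndn* (r 0.800, exact p = 0.0431, rho 0.77 with exact p = 0.103, 0.540 without them). *Plagl1* with *Ndn* had an exact p = 0.0403 (rho 0.83 with exact p = 0.0583, 0.535 without them) and *Meg3* with *Ndn* an r of -0.878 (exact p = 0.0222, rho -0.77 with exact p = 0.103, -0.793 without them). *H19* with *Cdkn1c* had an r of -0.884 (exact p = 0.0222, rho -0.89 with exact p = 0.0333, -0.748 without them), a sign opposite to their shared high values in mice 4 to 7. *Dlk1* with *Cdkn1c* (r 0.789, exact p = 0.0486, rho 0.83 with exact p = 0.0583) fell to 0.085 without the 2 farthest mice. For *Mest* with *Plagl1*, both lowest in mice 4 to 7, r within the 6 mice was 0.232 (exact p = 0.653, rho 0.37 with exact p = 0.497).

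Among 12679 genes well above background in both dyes on all arrays, those whose log2 ratio was most like *Mest* over the 10 mice included *Aldh4a1* (r 0.992, and 0.839 within the 6 mice), *Poln* (0.989 and 0.901), *Aldh1l1* (0.988 and 0.774) and *Aldh1a7* (0.988 and 0.946). The last 2 named and *Aldh4a1* belong to the aldehyde dehydrogenase family. Most unlike were *Tubgcp4* (-0.986 and -0.835), *Cma1* (-0.979 and -0.129), *Pdlim4* (-0.978 and -0.135), *Lilra6* (-0.976 and -0.863) and *Cpa3* (-0.974 and -0.267). *Cma1* and *Cpa3* code for mast cell proteases, and for them and *Pdlim4* the likeness was weak within the 6 mice. The 10-mouse values share the gap between the 2 sets and are a description.

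A list of 59 other imprinted genes was read the same way. On the array 57 were found, 45 were expressed and 40 could be tested, of which 27 varied more in the mice than in the pool (67.5%, against 59.8% of all probes) and 0 less. Mice 4 to 7 were lowest for 18 and highest for 6 (53.3% together, against 39.2% of all probes). The median SD was 0.25, against 0.18 over all expressed probes and 0.49 over the 9 imprinted growth genes. The widest spreads were those of *Nnat* (neuronatin, SD 1.12, -1.90 to 0.77), *Klf14* (a Krüppel-like transcription factor, 0.94) and *Ppp1r9a* (0.85), and the narrowest those of *H13* (0.06), *Peg12* (0.06) and *Ube3a* (0.08). 

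Neighbours from the same domains did not all move with their partner. Beside *Mest*, *Klf14* ran from -2.03 in mouse 7 to 0.42 in mouse 9 and *Copg2* from -0.66 to 0.18, both lowest in mice 4 to 7 (Pitman-Morgan adjusted p = 1.95e-07 and 0.000424 over all probes, 10 arrays). *Klf14* is known to be expressed from the maternal copy, unlike *Mest*. Beside *Dlk1* and *Meg3*, *Mirg* was highest in mice 4 to 7 (0.06 to 0.26 against -0.66 to -0.01, adjusted p = 0.00983 in the same test). So was *Begain* (0.47 to 0.64 against -0.05 to 0.39, adjusted p = 0.000161 in the same test). *Dio3* (SD 0.14) showed overlapping ranges and *Rtl1* was not expressed. Beside *Cdkn1c*, *Kcnq1ot1* (SD 0.19, -0.18 to 0.46) had mice 4 to 7 lowest but was not past the threshold (Pitman-Morgan adjusted p = 0.234, 10 arrays), and *Phlda2* was not expressed. Farther along that region *Osbpl5* (adjusted p = 4.49e-05 in the same test), *Cd81* (5.48e-05) and *Tspan32* (0.000142) were lowest in mice 4 to 7, where *Cdkn1c* was highest. The region did not share this direction. Ranges of the 2 sets overlapped for *Kcnq1*, *Slc22a18*, *Tssc4*, *Ascl2* and *Nap1l4*, and *Th* was highest in mice 4 to 7 (adjusted p = 0.157 in the same test). *Ins2*, beside *Igf2*, had an SD of 0.10 (adjusted p = 0.856 in the same test).

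Beside *Ndn*, *Snrpn* ran from -1.34 to 0.43, lowest in mice 4 to 7 (Pitman-Morgan adjusted p = 0.000136 over all probes, 10 arrays), whereas *Magel2* had an SD of 0.09 and *Mkrn3* was not expressed. Beside *Peg3*, *Zim1* and *Usp29* were not expressed. *Ddc*, beside *Grb10*, was well above background on 5 arrays only and ran from -0.87 in mouse 1 to 1.66 in mouse 2, an order unlike that of *Grb10*. *Rian* was not found on the array under that symbol.

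**Figure D4:**
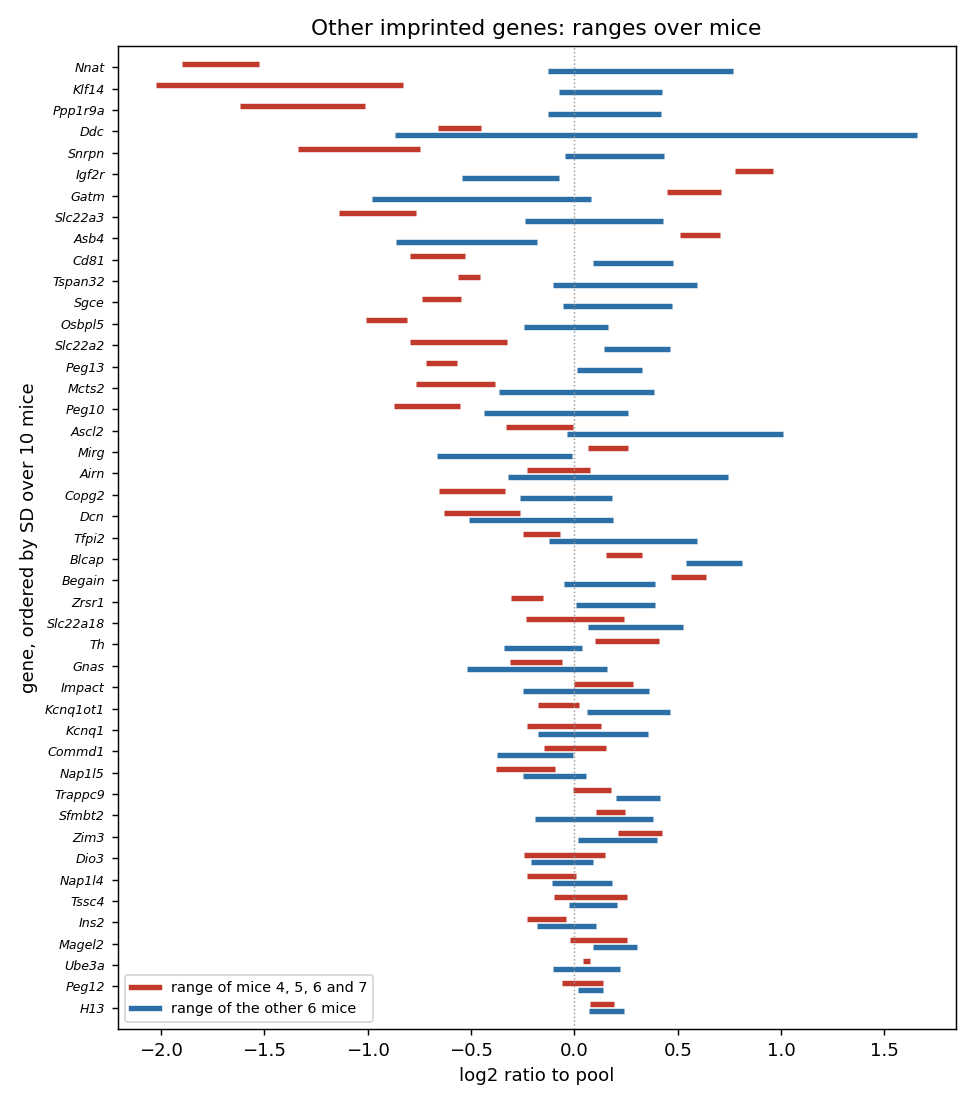
Range of the log2 ratio to the pool (x axis) for 45 other imprinted genes (y axis, ordered by SD over 10 mice), red for mice 4 to 7 and blue for the other 6 mice. The red range lies wholly below the blue one for 18 genes, led by *Nnat*, and wholly above it for 6, among them *Igf2r* and *Asb4*.

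Genes of IGF and insulin signalling, through which *Igf2* and *Grb10* act, included 14 expressed members of 17, of which 13 varied more in the mice than in the pool, against 59.8% of all probes. Mice 4 to 7 were lowest for 9 and highest for 3 (21.3% and 17.9% of all probes). *Igf2bp2*, an RNA-binding protein of *Igf2* mRNA, was highest in these mice (1.13 to 1.47 against -1.63 to -0.57, SD 1.22), and so was *Igf2r*, the imprinted receptor that clears IGF2 (0.78 to 0.96 against -0.54 to -0.07). *Igfbp5* (-2.19 to -1.32 against 0.03 to 0.58, SD 1.08) and *Igfals*, the acid-labile subunit that carries IGF in blood (SD 0.63), were lowest there. The binding proteins *Igfbp7* (0.13), *Igfbp6* (0.29) and *Igfbp4* (0.31) had the smallest SD.

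All 9 genes of fat mass expansion in the list, a set for which *Mest* is known as a partner, varied more in the mice than in the pool, as did 59.8% of all probes. *Sfrp5*, a secreted Wnt inhibitor, ran from -2.36 to 0.70 (SD 1.27), *Nnat* had an SD of 1.12 and *Lep* (leptin) of 1.09, and all were lowest in mice 4 to 7. *Mmp14* (0.54) and *Mmp2* (0.57), which code for matrix metalloproteinases and were highest there, and *Fgf1* (0.58) had the smallest SD. Factors that maintain imprints had a median SD of 0.23, against 0.18 over all expressed probes. Of 13 expressed, 8 varied more in the mice (61.5%, against 59.8% of all probes), 1 was lowest in mice 4 to 7 and 4 were highest (38.5% together, against 39.2% of all probes). *Dppa3* (SD 0.72), *Uhrf1* (0.63) and *Ctcfl* (0.43) had the widest spread, and *Ctcf* (0.08), *Zfp57* (0.09) and *Smchd1* (0.14) the narrowest.

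**Figure D5:**
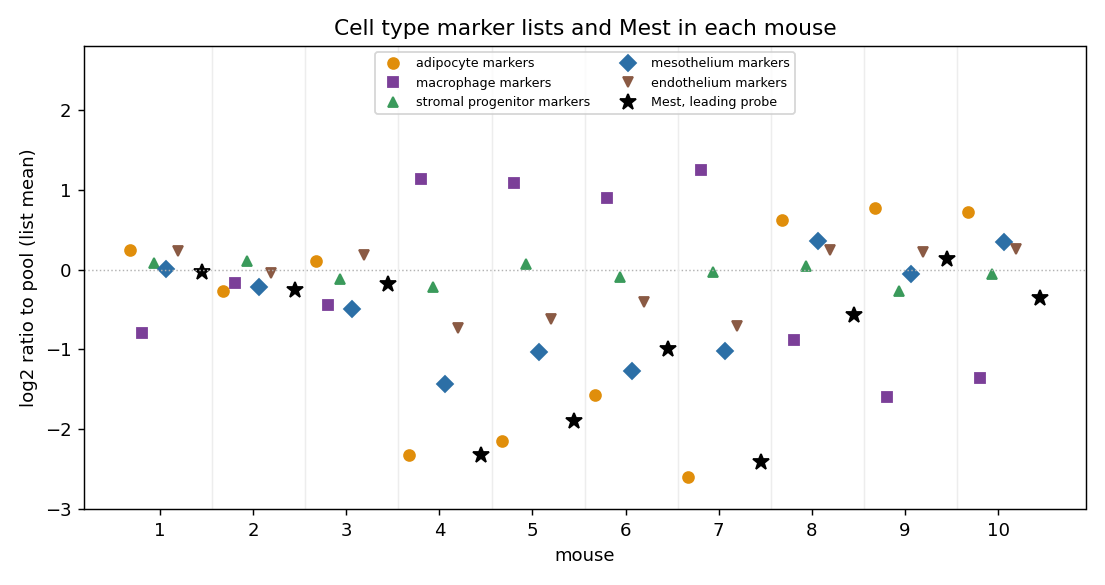
Mean log2 ratio to the pool of 5 cell type marker lists and the log2 ratio of the leading *Mest* probe (y axis) in each mouse (x axis). Adipocyte markers and *Mest* are lowest and macrophage markers highest in mice 4 to 7, whereas the mean of the stromal progenitor markers lies between -0.26 and 0.11 in all 10 mice, over genes that shift both ways.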

How the data were processed

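RNA of 10 mice was measured on Agilent 2-colour arrays, scanned with Agilent Feature Extraction (version 10.7.3.1 in the submitters' processing notes). The deposited scanner files hold mean and background intensity per spot in Cy5 and Cy3 and a log10 ratio that the authors' software computed; a deposited table of log2 normalized values was used as an alternative only (each column has a median of 8.52 and follows the log2 Cy5 signal of its array, r 0.994 to 0.999 across probes; whether Cy3 entered it is not given in the sources used here). Intensities were corrected with normexp (offset 50), normalized by loess within arrays and Aquantile between arrays in limma 3.58.1 (R 4.3.3), control and outlier spots were left out, and spots of a probe were averaged. Values are log2 ratios of Cy5 to Cy3. The Pitman-Morgan and limma tests, called at 0.05 after Benjamini-Hochberg adjustment, were run over all probes above background in both dyes (Pitman-Morgan) or all expressed probes (limma) and tested on simulated data. Each gene was represented by its leading probe. Named from the lists were the 3 genes with the largest and the 3 with the smallest SD, with neighbours of the imprinted growth genes; other genes named from the lists, such as *Igf2r*, *Asb4* and *Krt8*, were chosen after their values were seen. Genes, lists and tests were chosen with earlier results of these data known, and leaving out mice 4 to 7 was added after seeing the data. Nothing in the labels says how the mice were housed or dissected in batches, and precision is limited by the 10 arrays. Some items, among them 1 of the genes most like *Mest* and 1 probe sequence, are not reported here.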

Additional observations from a re-analysis of the deposited data

Results flagged for a closer look

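In none of the 18 expressed probes of the imprinted growth genes did the highest or lowest mouse lie farther from the others than Dixon's critical value for 10 samples allows; the largest gap was 0.412 of the range.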

How the results depend on the processing

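Leaving out each mouse in turn, the number of probes that varied more in the mice than in the pool was 13509 to 14405, against 14970, and leave-one-out counts of probes associated with each gene were 10209 to 12755 for *Mest*, 12084 to 14121 for *Peg3*, 4969 to 10601 for *H19*, 939 to 13242 for *Dlk1*, 8618 to 10652 for *Cdkn1c*, 12090 to 13948 for *Grb10*, 12282 to 14477 for *Plagl1*, 11143 to 13625 for *Meg3* and 10838 to 13491 for *Ndn*. The spread count was 4684 without Aquantile and 3555 within the 6 mice. With slide as a block, 7359 probes were associated with *Mest*, 7192 with *Peg3*, 0 with *H19* (limma), 1 with *Dlk1*, 4696 with *Cdkn1c*, 7586 with *Grb10*, 8706 with *Plagl1*, 6566 with *Meg3* and 5605 with *Ndn*. With median centring, which moved the median log2 ratio of all probes from 0.003 to 0.32, the counts were 5249 for *Mest*, 6758 for *Peg3*, 4380 for *H19*, 2060 for *Dlk1*, 6898 for *Cdkn1c*, 6133 for *Grb10*, 6909 for *Plagl1* and 6392 for *Ndn*. Without the 2 mice farthest from the median they were 7065 for *Mest*, 5617 for *H19*, 11566 for *Dlk1* and 8519 for *Meg3*, and with the scanner log ratio 10986 for *Dlk1*. Within the 6 mice they were 669 for *Plagl1* and 0 for the other 8 genes. The cause of these changes was not tested.

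The SD of *H19* was 0.80 with the scanner log ratio and 0.58 in the deposited values, that of *Dlk1* 1.22 and of *Grb10* 0.60 with the scanner log ratio, and that of *Meg3* 0.41 with median centring. Without Aquantile, *Grb10* (Pitman-Morgan adjusted p = 0.0766), *Meg3* (0.115) and *Ndn* (0.0552) lost their call. The mean log2 ratio moved from -0.01 to 0.53 for *Meg3* and from -0.10 to 0.24 for *Ndn* with median centring; of the 32 pairs called over 10 mice, 8 had an r of the opposite sign within the 6 mice, where none was called; the farthest were *Dlk1* with *Mest*, *Grb10* and *Plagl1* (positive slope, then r -0.348, -0.744 and -0.552) and *Peg3* with *Cdkn1c* (negative slope, then r 0.459). Genes near background, *H19*, *Dlk1* and *Igf2*, are measured least well. No paired analysis was possible because the mice form 1 group.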
